A study of Homo sapiens with 9 samples.

Results

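ATF4 and 9 genes known to respond to amino acid stress (DDIT3, TRIB3, ASNS, PHGDH, PSAT1, PSPH, SLC7A11, SLC7A5 and SESN2) were followed in MIA PaCa-2 cells, an established human pancreatic cancer line. The 10 genes were taken by symbol from a table of 58735 genes, and each symbol matched 1 entry. The cells carried no engineered allele and were treated for 24 h with 0.1% DMSO, with 1 μM SCH772984, an inhibitor of the kinases ERK1 and ERK2, or with 1 μM compound 1, an inhibitor of the kinases TBK1 and IKKε. RNA-Seq gave 3 libraries per group, so that each inhibitor could be compared with DMSO and the inhibitors with each other. The labels number the libraries within a group but do not say that they came from separate cultures, so p-values measure only the spread between these libraries. Both comparisons with DMSO use the same 3 DMSO libraries.

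ATF4 is a basic leucine zipper transcription factor of the integrated stress response. When amino acids run short, the kinase GCN2 phosphorylates the translation initiation factor eIF2, general protein synthesis falls, and the ATF4 mRNA is translated more efficiently. ATF4 then pairs with other leucine zipper proteins and activates genes for amino acid synthesis, amino acid import and transfer RNA charging, many of them through a short DNA element in the promoter. Because ATF4 is controlled to a large extent at translation, its mRNA level is not a measure of its protein, which was not measured here.

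The libraries held 9464432 to 13887859 counts assigned to genes, with the SCH772984 libraries the deepest (11056977 to 13887859). The share of counts from mitochondrial genes was 3.33% to 3.98% with DMSO, 3.41% to 3.92% with compound 1 and 6.23% to 7.52% with SCH772984, and the part of this shift in the results was not tested. Compound 1 replicate 1 stood apart from the other compound 1 libraries, with a chi-square per degree of freedom of 8.31 and 11.1 against them and 2.78 between those 2, beside 2.44 to 3.34 among DMSO libraries. Among SCH772984 libraries it was 7.22 and 5.56 for replicate 3 against the others and 4.39 between those. Calls among the 10 genes are given with and without a library where they change. The feedback regulator SPRY4, a readout of ERK activity, fell from 232 ± 5.19 CPM (the TMM-normalized count, a share of the library) with DMSO to 2.01 ± 0.648 with SCH772984 (SD, n = 3) and stood at 241 ± 9.75 with compound 1. All 9 tested genes of a list of MAPK pathway output genes fell with SCH772984 (median log2 fold change -3.58), where 35.5% of all tested genes were called lower. By edgeR 0 of 9 were called with compound 1, beside 0.864% of all tested genes, and 1 at an unadjusted p under 0.05. The line's keratins KRT8, KRT18 and KRT19 and the filament gene VIM were well detected, 3 of these 4 lower with SCH772984 beside the same 35.5%, whereas the epithelial genes EPCAM, CDH1 and KRT7 had 0 to 5 counts in every library. In bulk RNA, fewer cells of one kind and less RNA per cell cannot be told apart, and all levels are relative to the other RNA of the same library.

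With SCH772984, 7 of the 10 genes fell, 2 rose and DDIT3 was not called, by edgeR's quasi-likelihood test at a Benjamini-Hochberg adjusted p under 0.05 over 13834 genes. The ERK inhibitor changed most of the transcriptome, so this count is read against a background of 72.8% of all tested genes called, 35.5% lower and 37.2% higher. The median log2 fold change of the 10 genes was -0.98, beside 0.03 over all tested genes. Of the 10 genes, 5 fell by at least 2-fold (ATF4, TRIB3, ASNS, PSAT1 and SLC7A5), which 10.6% of all tested genes did. The 10 genes were chosen with earlier results of these data known, so their shares beside all genes are a description. The 3 SCH772984 libraries lay apart from the 3 DMSO libraries for 9 of the 10 genes, and for 74.3% of all tested genes. With compound 1, none of the 10 passed the adjusted threshold, against a background of 0.864% of 12849 tested genes, and the median log2 fold change was -0.01 beside 0.00 over all. At an unadjusted p under 0.05, 1 was higher (DDIT3) and 1 lower (SLC7A5) with compound 1, where 7.35% and 7.69% of all tested genes were.

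**Figure D1:**
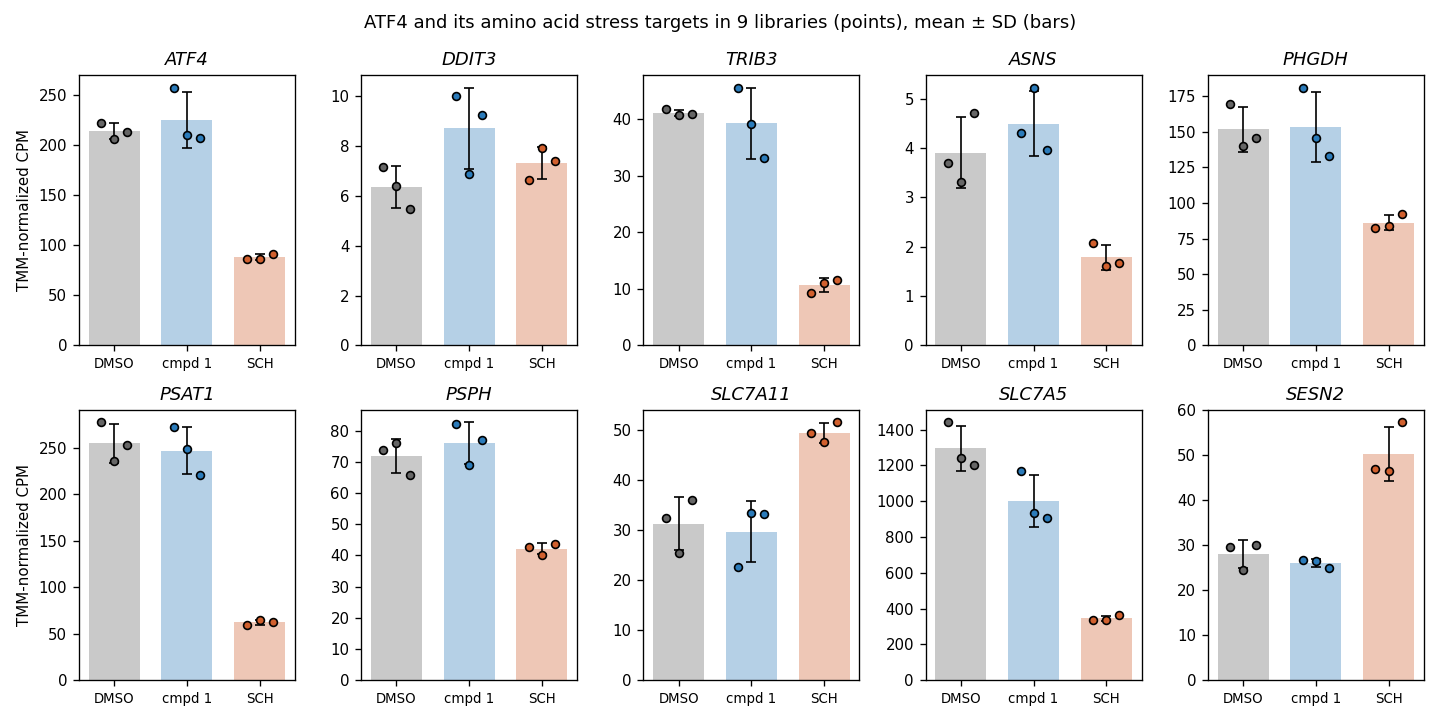
TMM-normalized CPM (y axes, linear from 0, one scale per panel) of the 10 genes in DMSO, compound 1 (cmpd 1) and SCH772984 (SCH). Points are single libraries, bars the group mean and error bars the SD (n = 3). The 3 SCH772984 libraries lie below all DMSO libraries for 7 genes and above them for SLC7A11 and SESN2, while compound 1 lies apart from DMSO for SLC7A5 alone.

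ATF4 itself (ENSG00000128272, chr22:39519695-39522685, plus strand, GRCh38) was among the genes that fell with ERK inhibition. Its level was 222, 206 and 213 CPM in the 3 DMSO libraries, 85.9, 86.7 and 91.2 CPM with SCH772984, and 257, 210 and 207 CPM with compound 1. All SCH772984 libraries lay below all DMSO libraries, while compound 1 overlapped DMSO. The log2 fold change with SCH772984 was -1.29 (SE 0.07, adjusted p = 7.24e-22), 2.44-fold lower, and 6.27% of tested genes had a more negative one. With compound 1 it was 0.08 (95% confidence interval -0.10 to 0.25, adjusted p = 0.713). Processed copies of ATF4 elsewhere in the genome held at most 0.678% of its counts in any library.

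DDIT3 (chr12:57516588-57521737, minus strand) encodes CHOP, a leucine zipper factor of prolonged stress that ATF4 induces. It was measured on few counts: 7.18, 6.40 and 5.47 CPM with DMSO (50 to 70 counts), 6.65, 7.93 and 7.39 CPM with SCH772984, and 10.0, 6.89 and 9.25 CPM with compound 1. Each treated group overlapped DMSO. The log2 fold change was 0.20 with SCH772984 (95% confidence interval -0.18 to 0.57, adjusted p = 0.342) and 0.46 with compound 1 (95% confidence interval 0.05 to 0.86, unadjusted p = 0.0294, adjusted p = 0.267). The SCH772984 interval does not reach the value of ATF4. Of the exonic bases of DDIT3, 39.6% are shared with other annotated genes, among them MARS and MBD6 on the opposite strand. MARS, itself lower with SCH772984 (log2 fold change -1.26), had 1338 to 2528 counts per library, and the strand setting of the counting is not given in the sources used here, so the assignment of reads to DDIT3 is uncertain.

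TRIB3 (chr20:362835-397559, plus strand) is a pseudokinase that ATF4 and CHOP induce and that in turn restrains them. It stood at 41.7, 40.6 and 40.8 CPM with DMSO and at 9.23, 10.97 and 11.6 CPM with SCH772984, with no overlap. It fell by 1.95 on the log2 scale (SE 0.11, adjusted p = 6.39e-20), 3.87-fold. TRIB3 counts per ATF4 count were 0.188 to 0.197 with DMSO and 0.108 to 0.127 with SCH772984, lower in every SCH772984 library than in any DMSO library. That ratio, like the other 4 below, was tested against DMSO for each inhibitor by a two-sided exact permutation test, where 3 against 3 libraries cannot go below p = 0.1. It reached that smallest p with both inhibitors (adjusted p = 0.143 over the 10 ratio tests), with 0.159 to 0.186 under compound 1. The TRIB3 level with compound 1 was 45.5, 39.1 and 33.1 CPM, around the DMSO libraries (log2 fold change -0.07, adjusted p = 0.827).

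SESN2 (chr1:28259527-28282491, plus strand) encodes Sestrin2, a leucine sensor that restrains mTORC1 and that ATF4 and p53 can both induce. Unlike most of the 10 genes it rose with ERK inhibition, from 29.5, 24.5 and 30.1 CPM with DMSO to 47.1, 46.5 and 57.3 CPM. The groups did not overlap, and the log2 fold change was 0.84 (SE 0.10, adjusted p = 3.10e-10), 1.79-fold. With compound 1 SESN2 stood at 26.7, 26.4 and 25.1 CPM, inside the DMSO range (log2 fold change -0.10, adjusted p = 0.709).

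The enzymes PHGDH, PSAT1 and PSPH carry out the successive steps of serine synthesis from a glycolytic intermediate, and all 3 fell with SCH772984, to unequal extents. PSAT1 (chr9:78297143-78330093, plus strand), the aminotransferase of the middle step, went from 277, 235 and 252 CPM with DMSO to 59.3, 65.1 and 62.5 CPM. This log2 fold change of -2.04 (SE 0.07, adjusted p = 4.55e-28), 4.11-fold lower, was the most negative of the 10 genes, and 1.57% of tested genes fell further. PHGDH (chr1:119648411-119744226, plus strand), the dehydrogenase of the first step, stood at 170, 140.1 and 146 CPM with DMSO and at 82.1, 84.2 and 92.2 CPM with SCH772984, a log2 fold change of -0.82 (SE 0.07, adjusted p = 1.37e-13). PSPH (chr7:56011051-56051604, minus strand), the phosphatase that releases serine, went from 73.7, 76.0 and 65.8 CPM to 42.7, 40.1 and 43.6 CPM, a log2 fold change of -0.77 (SE 0.08, adjusted p = 1.42e-11). None of the 3 overlapped DMSO.

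Ratios within a library compare the 3 enzymes free of scaling. There were 1.63 to 1.73 PSAT1 counts per PHGDH count with DMSO and 0.678 to 0.773 with SCH772984, and 3.10 to 3.84 PSAT1 counts per PSPH count with DMSO against 1.39 to 1.62. Both ratios were apart in all libraries and at the smallest p of the exact test (p = 0.1, adjusted p = 0.143). With compound 1 the ratio to PHGDH was 1.503 to 1.70 (exact permutation p = 0.5), that to PSPH was 2.87 to 3.61 (exact permutation p = 0.4), and the log2 fold changes were 0.01 for PHGDH (95% confidence interval -0.20 to 0.23), -0.04 for PSAT1 (-0.22 to 0.13) and 0.08 for PSPH (-0.11 to 0.27). The libraries with compound 1 overlapped DMSO for all 3 enzymes.

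ASNS, asparagine synthetase, is a textbook ATF4 target whose promoter carries a well-studied amino acid response element. In these cells it was the scarcest of the 10 transcripts, with 30 to 43 counts per DMSO library. It stood at 3.69, 3.31 and 4.71 CPM with DMSO, 2.08, 1.60 and 1.68 CPM with SCH772984 (19 to 25 counts) and 4.31, 5.22 and 3.95 CPM with compound 1. SCH772984 lay below DMSO without overlap, with a log2 fold change of -1.13 and the largest standard error of the 10 (0.29, adjusted p = 0.00059). With compound 1 the groups overlapped (log2 fold change 0.21, 95% confidence interval -0.29 to 0.70, adjusted p = 0.73). Of the exonic bases of ASNS (chr7:97852118-97872542, minus strand), 44.6% are shared with AC079781.5 on the same strand, which held 0 to 17 counts, so the counts of ASNS are uncertain.

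SLC7A5 and SLC7A11 are the light chains of amino acid exchangers that share the heavy chain SLC3A2, and they moved in opposite directions with ERK inhibition. SLC7A5 (LAT1, chr16:87830023-87869488, minus strand), the importer of leucine and other large neutral amino acids, was at 1440, 1241 and 1205 CPM with DMSO and at 336, 337 and 362 CPM with SCH772984. It fell by 1.91 on the log2 scale (SE 0.07, adjusted p = 6.69e-28), 3.77-fold. SLC7A11 (xCT, chr4:138164097-138242349, minus strand), which imports cystine in exchange for glutamate, was at 32.4, 25.5 and 36.1 CPM with DMSO and at 49.4, 47.6 and 51.6 CPM with SCH772984. It rose by 0.65 (SE 0.10, adjusted p = 9.55e-08), 1.57-fold, and neither gene overlapped DMSO. The named copy SLC7A5P1 held at most 1.10% of the SLC7A5 counts, and the antisense gene SLC7A11-AS1, which shares 8.97% of the exonic bases of SLC7A11, had 0 to 7 counts.

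The shared heavy chain SLC3A2 also fell with SCH772984 (log2 fold change -1.18, SE 0.06, adjusted p = 1.22e-21). SLC7A5 counts per SLC3A2 count went from 2.52 to 2.90 with DMSO to 1.62 to 1.65 with SCH772984, and SLC7A11 counts per SLC3A2 count went from 0.0556 to 0.0755 to 0.231 to 0.242. Both were fully apart, again at the smallest p of the exact permutation test (p = 0.1, adjusted p = 0.143).

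With compound 1, SLC7A5 was the only one of the 10 genes whose libraries did not overlap DMSO, which 20.9% of tested genes did not. Its 3 libraries were at 1169, 934 and 906 CPM, all under the lowest DMSO library at 1205 CPM. The log2 fold change was -0.37 (SE 0.09, unadjusted p = 0.000871, adjusted p = 0.0665), 1.29-fold lower and just short of the threshold. Without compound 1 replicate 1, the library that stood apart, it was -0.49 (adjusted p = 2.45e-07), and it was then one of 798 genes called lower, beside 48 with that library. Leaving out any other library gave values from -0.42 to -0.29, none of them called. SLC7A5 also passed with DESeq2 (-0.37, adjusted p = 0.0183) and in the fit of all 9 libraries (-0.37, adjusted p = 0.0356). SLC7A5 counts per SLC3A2 count were 2.19 to 2.34 with compound 1, below DMSO in all libraries (exact permutation p = 0.1, adjusted p = 0.143). SLC7A11 was at 22.6, 33.4 and 33.2 CPM with compound 1 and overlapped DMSO (log2 fold change -0.07, 95% confidence interval -0.40 to 0.26, adjusted p = 0.872). SLC7A11 counts per SLC3A2 count, at 0.0423 to 0.0835, overlapped DMSO as well (exact permutation p = 0.8).

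**Figure D2:**
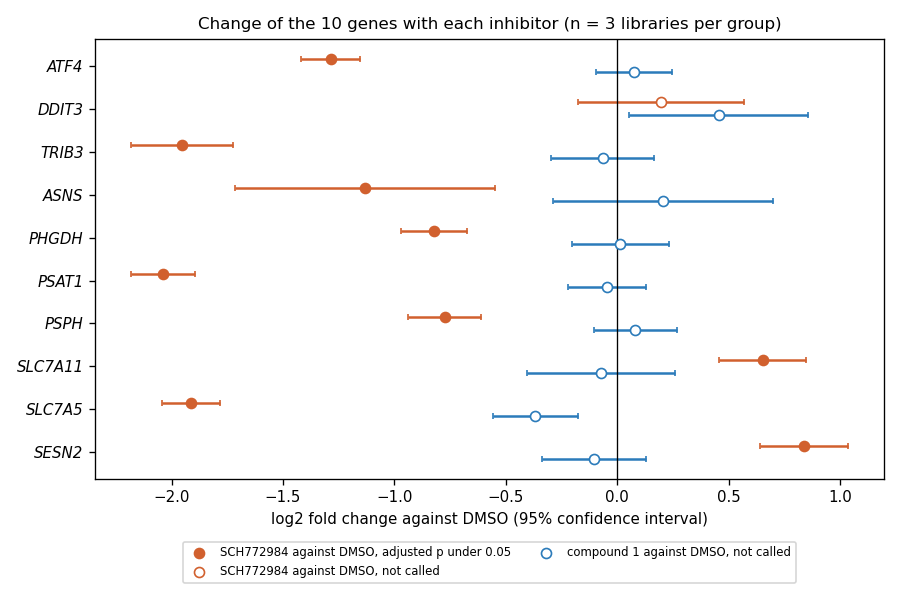
Log2 fold change against DMSO (x axis) of the 10 genes with SCH772984 (orange) and compound 1 (blue). Points are edgeR estimates from 3 against 3 libraries, bars the 95% confidence intervals, and filled points passed an adjusted p under 0.05. Filled points run from -2.04 for PSAT1 to 0.84 for SESN2 with SCH772984, and no compound 1 point is filled.

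The inhibitors were given at the same dose and time and were also compared directly, where 7 of the 10 genes were lower with SCH772984, 2 higher and 1 not called. Of 13863 tested genes, 66.3% were called, 32.6% lower and 33.7% higher. ATF4 was lower with SCH772984 than with compound 1 (log2 fold change -1.35, SE 0.09, adjusted p = 7.90e-11), as were TRIB3 (-1.88), ASNS (-1.33), PHGDH (-0.83), PSAT1 (-1.99), PSPH (-0.85) and SLC7A5 (-1.54). SLC7A11 (0.73) and SESN2 (0.95) were higher, and adjusted p over these 9 genes was at most 0.000218. DDIT3 was not called (-0.25, 95% confidence interval -0.63 to 0.13, adjusted p = 0.239).

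Per kilobase of annotated gene length, the 10 transcripts spanned a wide range in DMSO. SLC7A5 led at 273 ± 26.7 CPM per kb (SD, n = 3), followed by PSAT1 (117), ATF4 (85.0), PSPH (26.0), PHGDH (16.5), TRIB3 (11.96), SESN2 (8.12), DDIT3 (4.86), SLC7A11 (3.25) and ASNS (0.876 ± 0.162). No neighbours in this order overlapped. The order depends on the length used, which counts all annotated exonic bases of a gene (9217 for PHGDH and 9645 for SLC7A11). Lengths of the transcripts present in these cells were not measured. The counts of DDIT3 and ASNS, which share exonic bases with other genes, are uncertain as well. With compound 1 the order was the same, but PSAT1 overlapped ATF4 and SESN2 overlapped DDIT3. With SCH772984, SLC7A5 still led at 72.7 ± 3.07 CPM per kb, ATF4 (34.97) lay above PSAT1 (28.5), and TRIB3 (3.09) dropped below DDIT3 (5.603) and SLC7A11 (5.13) to the ninth place. SESN2 (14.6) reached PSPH (15.3) there, with overlapping libraries, as DDIT3 and SLC7A11 also overlapped.

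**Figure D3:**
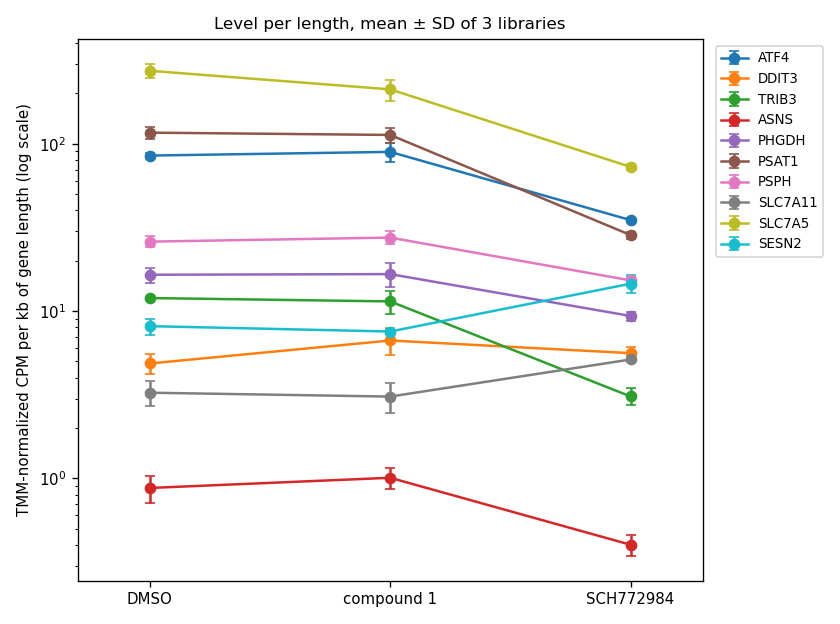
Level per gene length (TMM-normalized CPM per kb, log axis) of the 10 genes in each group, as mean ± SD of 3 libraries. Lines join the groups of one gene; with SCH772984 the line of TRIB3 crosses below those of DDIT3 and SLC7A11, and that of SESN2 rises to PSPH.

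The promoters were searched for TGATGNAA on both strands (TTNCATCA on the other strand), the core letters of the C/EBP-ATF response element that ATF4 pairs bind, in the 250 bases before each RefSeq start (GRCh38.p14). Of the 10 genes, 8 had a promoter entry, and 1 of these, ASNS, held the letters, as did 3.89% of 27305 RefSeq genes. No match says only that the letters are not in this window. The ASNS match begins at position -68 from the RefSeq start (chr7:97872469-97872476, minus strand), inside the gene as the deposited annotation draws it. Of 75 other genes of the pathway lists described next, 13 (17.3%) held a match. These were 9 of 42 genes lower with SCH772984 (21.4%), 3 of 21 higher (14.3%), 0 of 8 not called and 1 of 4 not tested. The lists contain known ATF4 targets, so these shares are a description. The stretches below, 5′ to 3′ on the gene's strand with the match in capitals, show ASNS (chr7:97872458-97872487) beside genes of its lists that fell (CHAC1, CEBPG, MTHFD1L, SLC1A5, GARS) and that rose (ATF3, JDP2), at chr15:40953251-40953280, chr19:33374060-33374089, chr6:150866346-150866375, chr19:46784893-46784922, chr7:30594834-30594863, chr1:212565205-212565234 and chr14:75427995-75428021 in that order, SLC1A5 on the minus strand and the others on the plus strand. The letters TGATGCAA occur both in CEBPG, which fell, and in JDP2, which rose.
ASNS: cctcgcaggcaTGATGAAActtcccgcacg
CHAC1: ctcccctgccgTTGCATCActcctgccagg
CEBPG: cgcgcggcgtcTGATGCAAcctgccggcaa
MTHFD1L: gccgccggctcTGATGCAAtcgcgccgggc
SLC1A5: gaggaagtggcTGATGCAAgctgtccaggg
GARS: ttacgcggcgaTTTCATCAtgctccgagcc
ATF3: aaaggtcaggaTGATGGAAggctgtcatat
JDP2: atagccggggcTGATGCAAcccgtccc

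The wider pathway was described with 9 lists of 89 genes, of which 83 were tested with SCH772984, 23 called higher and 52 lower, beside 37.2% and 35.5% of all genes. The lists too were chosen with earlier results of these data known, so these counts are a description. Of the 23, ALDH1L2, NUPR1 and SLC7A7 had under 10 counts in every DMSO library and entered the test through the SCH772984 libraries, where they are high, and 20 of 80 were higher without these 3. With library size alone as scaling, which moves the median of all genes from 0.03 to 0.20, the counts of 23 and 52 became 26 and 49, while over all genes 6242 were higher and 3911 lower in place of 5150 and 4916. Upstream, none of the eIF2 kinases PKR (EIF2AK2, -0.05), PERK (EIF2AK3, 0.03) and GCN2 (EIF2AK4, -0.09) was called, whereas HRI (EIF2AK1) fell by 0.65 and GCN1, the ribosome-bound activator of GCN2, fell by 0.95. In that list of 9 genes, 3 fell and 2 rose, with 3 and 3 under library size alone and with at least 10 counts in every library. The constitutive phosphatase subunit PPP1R15B fell by 0.37, whereas the kinase inhibitor DNAJC3 (0.68, adjusted p = 1.76e-09) and the inducible phosphatase subunit PPP1R15A (0.30) rose. PPP1R15A was not called without DMSO replicate 1 (0.22, adjusted p = 0.11), which left 1 that rose. All 8 subunits of eIF2 and its exchange factor eIF2B fell (median -0.68, EIF2S2 most at -1.26), 7 of them with library size alone or with at least 10 counts in every library.

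Among 6 leucine zipper factors that pair with or follow ATF4, CEBPG (-1.62), CEBPB (-0.96) and ATF5 (-0.59) fell, ATF3 (1.501) and JDP2 (1.00) rose, and NFE2L2 was not called, but was with library size alone (0.18). CEBPG, a usual partner of ATF4 on its elements, went from 77.4 to 77.8 CPM with DMSO to 21.7 to 27.4 CPM. Of 12 other amino acid and one-carbon enzymes, 7 fell and 4 were called higher, one of them ALDH1L2. The mitochondrial folate enzymes MTHFD1L (-2.15) and MTHFD2 (-1.74) and the alanine aminotransferase GPT2 (-1.35) fell most, while the transsulfuration enzyme CTH rose (1.19). The other transsulfuration enzyme, CBS, was called higher (0.38) on overlapping groups, and its call was lost without DMSO replicate 2 (0.22), DMSO replicate 3 (0.30) or SCH772984 replicate 3 (0.27). The weakest call, SHMT1 (0.17, adjusted p = 0.0404), was lost in these settings too, leaving 2 genes of the list called higher. SHMT1 was also lost with no filter on low counts, with all 9 libraries in one fit, with DESeq2 and without DMSO replicate 1 or SCH772984 replicate 1, leaving 3. ALDH1L2 was counted 41 to 44 times with SCH772984 and 1 to 7 times with DMSO. The glutamine and neutral amino acid carriers SLC1A5 (-1.76) and SLC1A4 (-1.66) were among 6 of 9 tested transporters that fell. The glycine transporter SLC6A9 (0.81) and the carrier SLC38A2 (0.29) rose. SLC43A1 was called higher (0.60), but not without DMSO replicate 3 (0.48) or SCH772984 replicate 3 (0.38).

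Of 12 cytosolic aminoacyl-tRNA synthetases, which charge transfer RNA with amino acids, 11 fell (median -0.71, YARS -1.54, TARS -1.46 and MARS -1.26) and WARS rose (0.40). The glutathione-degrading enzyme CHAC1 fell by 2.18 (SE 0.22, adjusted p = 6.36e-12), the most of the other stress targets of ATF4, of which 4 of 9 tested fell, among them the translation repressor EIF4EBP1 (-1.90) and the growth factor VEGFA (-1.46). KLHL24 (2.72) and DDIT4 (0.36) rose in the same list, and NUPR1 was counted 11 to 26 times with SCH772984 and 1 to 4 times with DMSO. The 14 XBP1 and ATF6 targets of the endoplasmic reticulum, which belong to the other arms of the unfolded protein response, were split into 8 that fell and 6 that rose (median -0.24). With library size alone 6 fell and 6 rose (median -0.07), and with at least 10 counts in every library 7 fell and 6 rose. The weakest rise, CRELD2 (0.16, adjusted p = 0.0483), was lost with RLE factors, no filter on low counts, all 9 libraries in one fit, the replicate block and DESeq2 and without each single library other than SCH772984 replicate 3, leaving 5. SDF2L1 (-0.96), DNAJB11 (-0.86) and HYOU1 (-0.77) fell, and SEL1L (0.93), DNAJB9 (0.84) and HERPUD1 (0.60) rose.

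With compound 1, 80 genes of the lists were tested, none was called higher and 1 was called lower, beside 0.49% and 0.374% of all tested genes. That gene, the cationic amino acid transporter SLC7A1, went from 388 to 414 CPM with DMSO to 305 to 336 CPM (log2 fold change -0.32, SE 0.07, adjusted p = 0.0376). SLC7A1 was not called with library size alone (-0.29, adjusted p = 0.0539), without any one DMSO library (-0.30, -0.31 and -0.34) or without compound 1 replicate 3 (-0.33). By edgeR's unadjusted p under 0.05, 3 were higher and 11 lower, beside 7.35% and 7.69% of all tested genes. CHAC1 had the most negative value, -0.74 (SE 0.19, adjusted p = 0.0825), with 8.10 to 10.9 CPM with DMSO and 4.68 to 7.11 CPM with compound 1, not overlapping. CHAC1 was called without compound 1 replicate 1 (-0.91, adjusted p = 0.00283), with no filter on low counts (-0.75) and with the replicate block (-0.74, adjusted p = 0.0232). Without compound 1 replicate 1, 2 genes of the lists were called higher and 15 lower, while over all 13084 genes tested 9.56% were called, 453 higher and 798 lower.

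**Figure D4:**
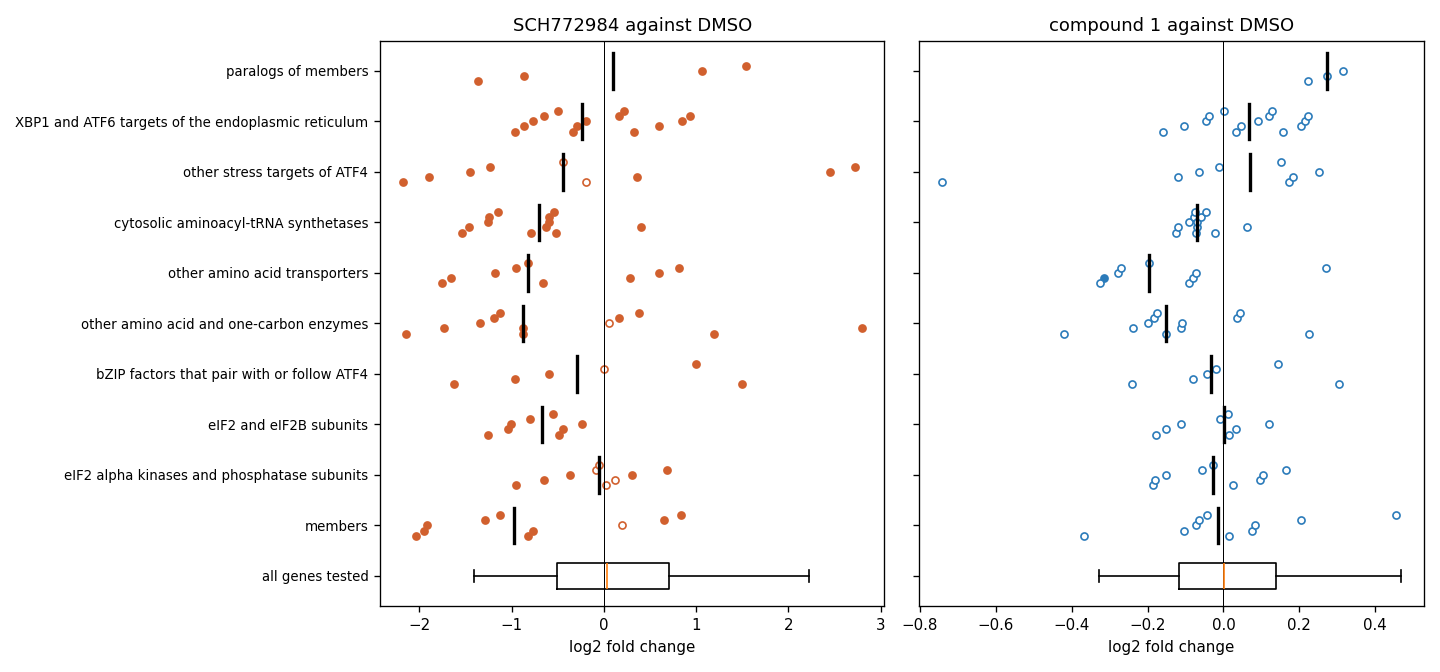
Log2 fold change against DMSO (x axes, separate scales) of each tested gene of the 10 genes (labelled members) and of the 9 pathway lists, with SCH772984 (left) and compound 1 (right). Filled points passed an adjusted p under 0.05, black ticks are list medians, and the box shows all tested genes with quartiles and whiskers to the 5th and 95th percentiles. The median of the 10 genes is -0.98 on the left and -0.01 on the right.

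The genes whose 9 library values, each centred on its DMSO mean, lay nearest to those of ATF4 among 10476 candidates were CLIC1 (root mean square difference 0.0492 on the log2 scale), ATAD3B (0.0638), TNFRSF1A (0.0647), PLOD3 (0.0655) and DTYMK (0.0656). None is in the lists above. The other members of the group lay farther off. The difference was not scaled, so a gene that moved in the direction of ATF4 by a larger or smaller amount also lies far off. With SCH772984, TRIB3 (log2 fold change -1.95), PSAT1 (-2.04) and SLC7A5 (-1.91) fell more than ATF4 (-1.29), and PHGDH (-0.82) and PSPH (-0.77) fell less. PHGDH (0.278) ranked 1093 among the candidates, PSPH (0.309) 1352, TRIB3 (0.40) 2104, PSAT1 (0.442) 2481 and SLC7A5 (0.444) 2504. DDIT3 (0.894, rank 6955), SLC7A11 (1.16, rank 8673) and SESN2 (1.23, rank 8979) were farthest, and ASNS (0.255) was below the 5 CPM that candidates needed and has no rank.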

How the data were processed

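MIA PaCa-2 RNA was sequenced by a commercial provider, and the authors deposited whole-number read counts per gene with gene lengths. The submitters' processing notes name HISAT2 2.0.5, featureCounts 1.5.0-p3 and hg38, with strand setting not given in the sources used here. All gene identifiers and coordinates matched GENCODE 29. Each pair of groups was fitted separately with edgeR 4.0.16 (R 4.3.3): filterByExpr (minimum count 10, total 15), TMM scaling, robust quasi-likelihood F test, and Benjamini-Hochberg adjustment over all tested genes. No spike-in was used. Levels are TMM-normalized CPM, divided by deposited gene length in kb where stated. Scripts were tested on simulated data. Alternatives were library size alone, RLE factors, other count filters, all 9 libraries in one fit, a replicate block, protein-coding genes only, DESeq2 1.42.0, an unadjusted threshold and leaving out each library. The members and lists were chosen with earlier results of these data known. Named genes were the members, up to 3 called genes with the largest rise and fall per list, genes of lists of 6 or fewer, and the 5 genes most like ATF4. The eIF2 kinases, SHMT1, CRELD2, GARS, the cell line markers, SPRY4, COL1A1 and CHAC1 with compound 1 were named after their values were seen. Promoter sequences come from RefSeq.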

Additional observations from a re-analysis of the deposited data

How the results depend on the processing

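With SCH772984, against DMSO and against compound 1, 7 of the 10 genes were lower and 2 higher under every alternative listed in the methods and without each library in turn. With compound 1 against DMSO, 0 of the 10 were called, and the unadjusted threshold gave 1 higher and 1 lower. The number lower was also 1 (SLC7A5) with no filter on low counts, with all 9 libraries in one fit, with DESeq2 and with the replicate block. It ranged from 0 to 1 when single libraries were left out, 1 without compound 1 replicate 1. In the pathway lists the number higher with compound 1 was 0, 3 unadjusted and 0 to 2 without single libraries. The number lower was 1, 11 unadjusted, 0 with library size alone, 2 with no filter and 2 with the replicate block (SLC7A1 and CHAC1), and 0 to 15 without single libraries (15 without compound 1 replicate 1, 0 without any one DMSO library or compound 1 replicate 3). The cause of these shifts was not tested. Over all genes, compound 1 called 63 higher and 48 lower, 85 and 25 with library size alone, 189 and 228 with no filter, 91 and 97 with all 9 libraries, 193 and 219 with the replicate block, 117 and 119 with DESeq2, 38 and 32 with protein-coding genes only, and 453 and 798 without compound 1 replicate 1. Without any one of the other libraries it called 5 to 27 higher and 3 to 24 lower. Whether same-numbered libraries were paired is not known. Over all genes they correlated at 0.0115 to 0.0472 for SCH772984 with DMSO and at -0.0224 to 0.0773 for compound 1 with DMSO. Libraries of unlike number correlated at -0.0788 to 0.0616 and at -0.050 to 0.0698 in these comparisons. Of 9 libraries, 3 correlated best with their own number. Such correlations cannot exclude a pairing, and the block raised the compound 1 calls over all genes. Apart from SLC7A5 with compound 1, the block changed no call of the 10 genes. ASNS and DDIT3 had the fewest counts of the 10 genes, and the assignment of reads to them is uncertain.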

Other observations

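The paralogs of the stress genes did not all move with them. TRIB2, a pseudokinase related to TRIB3, went from 43.1 to 53.9 CPM with DMSO to 18.1 to 19.3 CPM with SCH772984 (log2 fold change -1.36, SE 0.10, edgeR adjusted p = 2.32e-16), and TRIB1 fell by 0.86 (SE 0.30, adjusted p = 0.00891) on 27 to 35 counts per DMSO library. With compound 1, TRIB2 stood at 56.5 to 61.5 CPM, above all DMSO libraries (log2 fold change 0.32, SE 0.10, unadjusted p = 0.00493, adjusted p = 0.132). Without compound 1 replicate 1, which stood apart, it was 0.35 (adjusted p = 0.00488). SESN1, a sestrin known as a p53 target, rose with SCH772984 as SESN2 did, from 6.57 to 7.73 CPM to 13.9 to 15.7 CPM (log2 fold change 1.06, SE 0.16, adjusted p = 6.82e-08). SLC7A7, another exchanger light chain, was counted 18 to 27 times with SCH772984 and 5 to 6 times with DMSO, and entered the test through SCH772984. SESN3 had 0 to 11 counts and SLC7A8 0 to 5 counts in all 9 libraries, too few to test.

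COL1A1, a collagen gene used as a marker of stromal cells, was at 28 to 48 counts with SCH772984, beside 1 to 4 with DMSO. The other 11 markers of other cell types had 0 or 1 count in every library. The part of such cells in the results was not tested beyond these counts.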
